A study of Homo sapiens with 9 samples.

Results

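The folate cycle and thymidylate synthesis genes described here are 8 genes of one-carbon metabolism, TYMS, MTHFD1, MTHFD2, SHMT1, SHMT2, FPGS, GGH and SLC19A1. They were taken as every probe set annotated to exactly 1 of these symbols, which gave 21 of the 54613 probe sets tested, for 8 of 19775 genes. TYMS had 3 probe sets, MTHFD1 2, MTHFD2 2, SHMT1 2, SHMT2 3, FPGS 1, GGH 1 and SLC19A1 7. A further 2 probe sets carry SHMT1 together with the microRNA gene MIR6778 and were not used. They were brighter than 85.8% and 91.5% of all probe sets, at intensities from 392 to 854, so the SHMT1 values below are those of its dim probe sets only. The arrays came from HT29, an established human colon cancer cell line, in 3 groups of 3. The ICC cells had been treated for 24 h with instant caffeinated coffee at 7 µg/mL. The CA cells had received caffeic acid, 1 of the phenolic compounds in coffee, at 1.68 µg/mL over 24 h. The Control cells were untreated. All 9 arrays were Affymetrix expression arrays, with total RNA as the starting material and biotin as the label, and replicate numbers 1, 2 and 3 occur once in each group. The labels do not say what the number marks or whether the replicates were separate cultures, and every p-value therefore reflects array-to-array spread alone.

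Folate cofactors carry one-carbon units. SHMT1 in the cytosol and SHMT2 in mitochondria split serine into glycine and a one-carbon unit. MTHFD2 oxidises that unit in mitochondria, and MTHFD1 interconverts its forms in the cytosol. TYMS spends it to make thymidylate, the DNA precursor, and is the target of fluorouracil, a standard drug in colon cancer. SLC19A1 imports reduced folates, FPGS adds the glutamate tail that holds them in the cell, and GGH removes that tail.

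The 9 arrays had median intensities between 43.8 and 46.6, and any pair of arrays correlated at Pearson's r of 0.993 to 0.998 over probe sets. Of the 21 member probe sets, 16 were brighter than the median of all probe sets. The dim ones were both SHMT1 probe sets, 239846_at of MTHFD1, and 209775_x_at and 229639_s_at of SLC19A1. The label of a colon epithelial line was checked with 12 marker genes, of which 9 lay above the median of all genes. The markers CDH17, GPA33 and CDX2, also defining genes of that lineage, lay below it. Above it lay 1 of 7 fibroblast, 2 of 5 measured leukocyte and 0 of 4 endothelial markers, and the defining genes PTPRC (leukocytes), LUM (fibroblasts) and KDR (endothelium) lay below. The summed intensity of the fibroblast markers was 319 to 350 in ICC, 303 to 328 in CA and 286 to 303 in Control, with 0 of 7 past the test between treatments.

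None of the 21 probe sets passed the test in cells treated with coffee or with caffeic acid. The background was the same: at an adjusted p under 0.05 (limma, Benjamini-Hochberg over all probe sets) the share called was 0% in ICC against Control, 0% in CA against Control, and 0% between ICC and CA. At an unadjusted p under 0.05, 1 member probe set was counted for ICC against Control, where 8.23% of all probe sets were. For CA against Control the count was 2 members, beside 4.68% of all probe sets. For ICC against CA it was 0 members, beside 2.65%. The median log2 difference of the 21 was 0.03 for ICC minus Control, -0.01 for CA minus Control and 0.06 for ICC minus CA. Over all probe sets these medians were 0.01, -0.00 and 0.02. Adding the replicate number as a block, which the arrays' pairing allows, left 0 members past the test in each comparison, with lowest adjusted p of 0.269, 0.527 and 0.882.

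**Figure D1:**
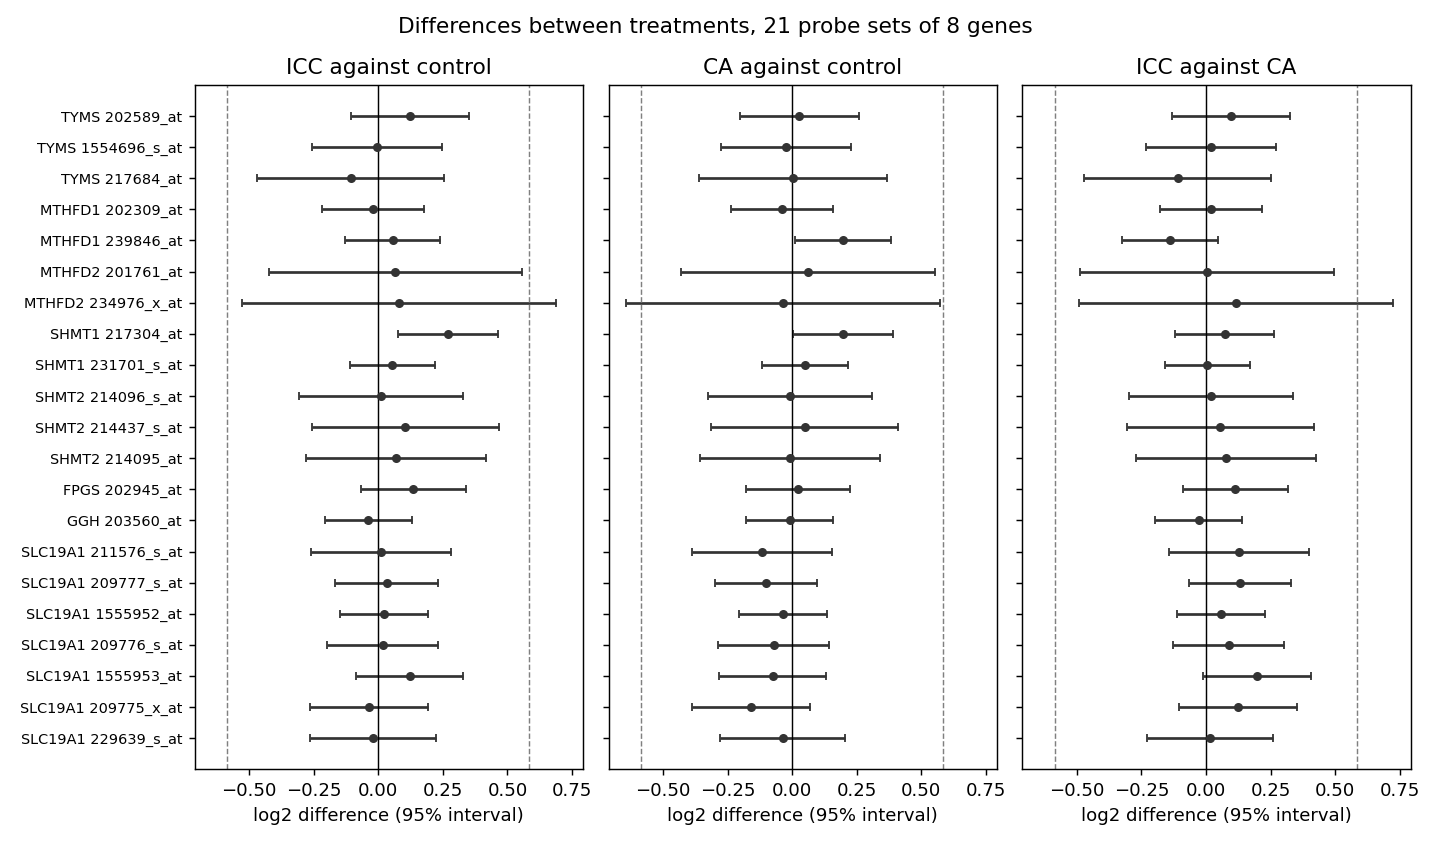
Log2 differences (horizontal axis) of the 21 probe sets (rows) for the 3 treatment comparisons (panels, ICC against Control first), as points with 95% intervals from limma over 9 arrays. The dashed lines mark a 1.5-fold difference, and 20 of 21 intervals lie inside them in each panel, MTHFD2 234976_x_at being the exception.

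TYMS, the thymidylate synthase, was bright in every array. Its probe set 202589_at read 5391, 4463 and 4759 in ICC replicates 1, 2 and 3, then 5007, 4055 and 4617 in CA and 4297, 4221 and 4876 in Control. The groups overlapped, and the highest array was ICC replicate 1. On the log2 scale the mean was 12.25 ± 0.14 in ICC, 12.15 ± 0.15 in CA and 12.12 ± 0.11 in Control (SD, n = 3 each). ICC minus Control was 0.12 ± 0.10 (SE), with a 95% interval of -0.10 to 0.35, and CA minus Control was 0.03 ± 0.10. The probe set 1554696_s_at differed by -0.01 ± 0.11 in ICC and -0.02 ± 0.11 in CA, and 217684_at by -0.11 ± 0.16 in ICC and 0.00 ± 0.16 in CA, each against Control. All 3 probe sets of TYMS overlapped between treatments.

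MTHFD2, the mitochondrial dehydrogenase and cyclohydrolase, had the widest spread of the 8 genes. Its probe set 201761_at read 4863, 5833 and 4427 in ICC, 4807, 7084 and 3654 in CA, and 5350, 5380 and 3799 in Control. Replicate 2 was the highest and replicate 3 the lowest array in every group. The log2 mean was 12.29 ± 0.20 in ICC, 12.29 ± 0.48 in CA and 12.22 ± 0.29 in Control (SD, n = 3 each). ICC minus Control was 0.07 ± 0.22 (SE, interval -0.42 to 0.56) and CA minus Control was 0.06 ± 0.22 (interval -0.43 to 0.55). Set against the Control array of the same number, ICC differed by -0.14, 0.12 and 0.22 in replicates 1, 2 and 3, and CA by -0.15, 0.40 and -0.06, so neither treatment kept 1 sign. The dimmer probe set 234976_x_at had the widest interval of all members, -0.53 to 0.69 for ICC minus Control.

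SHMT2, the mitochondrial serine hydroxymethyltransferase, read 2330, 2831 and 2435 in ICC on 214096_s_at, 2336, 3084 and 2141 in CA, and 2791, 2585 and 2172 in Control. The 3 groups overlapped. Its 3 probe sets differed by 0.01 to 0.10 for ICC minus Control and by -0.01 to 0.05 for CA minus Control on the log2 scale, with SEs from 0.14 to 0.16. MTHFD1, the cytosolic enzyme, read 2230, 2021 and 1915 in ICC on 202309_at, 2236, 1887 and 1968 in CA, and 2204, 2020 and 2021 in Control. It differed by -0.02 ± 0.09 in ICC and -0.04 ± 0.09 in CA, each against Control (SE).

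SHMT1, the cytosolic serine hydroxymethyltransferase, gave the lowest p of the 21 for ICC against Control, on a dim probe set. Its 217304_at read 15.1, 14.0 and 15.5 in ICC, 12.5, 15.4 and 14.7 in CA, and 12.5, 12.5 and 12.1 in Control. Every ICC array was above every Control array. ICC minus Control was 0.27 ± 0.09 (SE; unadjusted p = 0.0108, limma adjusted p = 0.538), and CA minus Control was 0.20 ± 0.09 (adjusted p = 0.986). Only 15.8% of all probe sets were dimmer, unlike the 2 unused probe sets that carry SHMT1 with MIR6778. With 16 added to each intensity before the log, ICC minus Control was 0.12. The second SHMT1 probe set, 231701_s_at, differed by 0.05 ± 0.07 in ICC and 0.05 ± 0.07 in CA against Control.

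FPGS, the folylpolyglutamate synthase, read 453, 452 and 474 in ICC, 442, 456 and 381 in CA, and 440, 442 and 377 in Control. The 3 ICC arrays lay above the 3 Control arrays by a small margin. ICC minus Control was 0.14 ± 0.09 (SE, interval -0.07 to 0.34, adjusted p = 0.702), and the same-numbered arrays differed by 0.04, 0.03 and 0.33, so replicate 3 carried most of it. Groups lay apart in 2 member probe sets for ICC against Control, SHMT1 217304_at and FPGS, where 11.8% of all probe sets did. For CA against Control 3 did, beside 7.85%: SHMT1 217304_at and the dim MTHFD1 239846_at above, and SLC19A1 209775_x_at below. For ICC against CA 0 did, beside 5.89%.

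GGH, the gamma-glutamyl hydrolase, read 757, 726 and 684 in ICC, 787, 704 and 720 in CA, and 784, 715 and 726 in Control. Its ICC minus Control difference was -0.04 ± 0.08 (SE) and its CA minus Control difference -0.01 ± 0.08. SLC19A1, the reduced folate carrier, read 408, 503 and 493 in ICC on its brightest probe set 211576_s_at, 408, 378 and 503 in CA, and 457, 427 and 507 in Control. Its 7 probe sets ran from -0.04 to 0.12 for ICC minus Control and from -0.16 to -0.04 for CA minus Control. In all, 18 of the 21 member probe sets and 31486 of all 54613 probe sets were higher in ICC than in CA. All 7 of SLC19A1 were among them, by 0.02 to 0.20. The largest of these, 1555953_at, differed by 0.20 ± 0.09 (SE, unadjusted p = 0.0611, adjusted p = 1.00), and the probe sets share a gene and are not replicates.

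**Figure D2:**
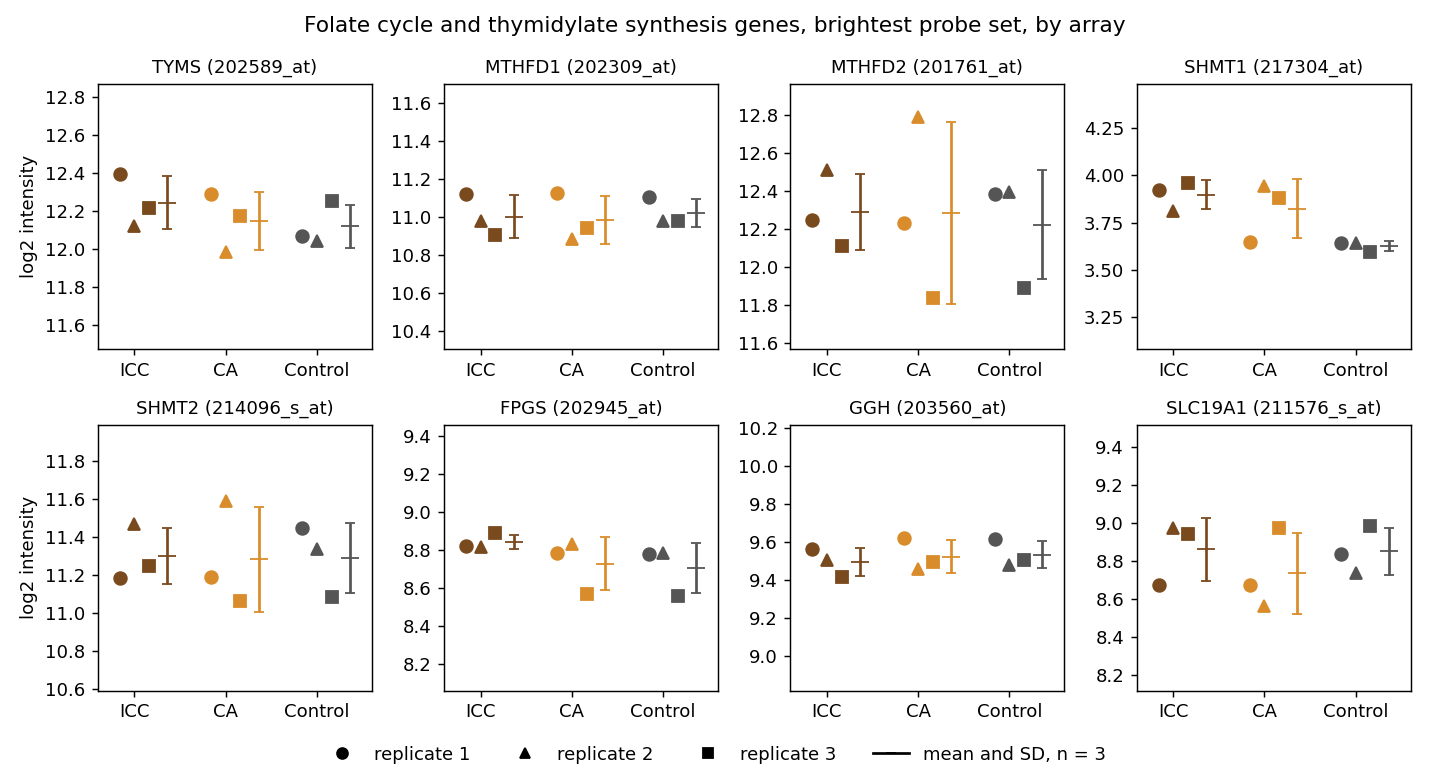
Log2 intensity (vertical axis, own range in each panel but the same height in log2 units) of the brightest probe set of each gene in the 9 arrays, by treatment, with marker shape giving the replicate number and bars the mean and SD (n = 3). MTHFD2 and SHMT2 spread by replicate number within each treatment, replicate 3 being low in CA and Control for both.

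Each interval is that of 1 probe set and rests on array-to-array spread alone. The RMA processing of the deposited values can shrink differences of dim probe sets, so a narrow interval there does not exclude a change in the cells. For each treatment comparison 20 of the 21 intervals lay within 1.5-fold of no difference, and all 21 within 2-fold. Within 1.2-fold lay 8 for ICC against Control, 6 for CA against Control and 5 for ICC against CA. Of the 16 probe sets brighter than the median, 15 lay within 1.5-fold in each comparison. Within 1.2-fold lay 6, 5 and 3 of these 16, in the same order. With the replicate number as a block all 21 lay within 1.5-fold in each comparison, and the counts within 1.2-fold were 11, 11 and 8.

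The rest of the pathway was described with 6 further lists, of which 68 of 71 genes were measured and 3 were not analysed here. Each gene was represented by its brightest probe set. None of the 68 passed in any of the 3 treatment comparisons, where the share of all 19775 genes called was 0%, 0% and 0%. At an unadjusted p under 0.05 the counts were 2, 3 and 1 genes, beside 7.73%, 4.47% and 2.69% of all genes. The lists' medians ran from -0.13 to 0.12 for ICC minus Control, from -0.10 to 0.06 for CA minus Control and from -0.03 to 0.16 for ICC minus CA.

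Among folate transport genes, the proton-coupled carrier SLC46A1 differed by -0.19 in ICC minus Control, and the folate receptors FOLR1 and FOLR2 by -0.64 ± 0.39 (SE) and 0.10. FOLR1 rested on 1 array: it read 1393, 373 and 1224 in ICC, 1362, 1141 and 923 in CA, and 1371, 1280 and 1375 in Control. In CA minus Control the lowest p of this list belonged to the exporters ABCC1 (-0.17) and ABCG2 (-0.14) and to SLC46A1 (-0.10).

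Among the 10 other folate enzymes measured, MTFMT, which formylates the mitochondrial initiator tRNA, differed by -0.24 ± 0.09 (SE) in ICC minus Control, FTCD by 0.15 and MTRR by -0.13. In CA minus Control FTCD, which acts in histidine breakdown, differed by 0.22, MTHFD2L by 0.29 and MTHFD1L by 0.15. Among the 12 other thymidylate and deoxynucleotide genes, the cytidine deaminase CDA differed by -0.39 ± 0.08 in CA minus Control (unadjusted p = 4.51e-04, limma adjusted p = 0.996) and by -0.21 in ICC minus Control. The deoxycytidine kinase DCK differed by 0.20 and 0.18 in the same comparisons, RRM2B by 0.17 in CA and DTYMK by 0.10 in ICC. None of these passed the test.

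Among the 8 serine synthesis and glycine cleavage genes, AMT differed by 0.15 in ICC minus Control, SFXN1 by 0.11 and PSPH by 0.35, and in CA minus Control by 0.08, 0.07 and 0.26. The 15 S phase genes included the cyclin CCNE2, at 0.17 in ICC and 0.30 in CA against Control, and the replication licensing factor CDC6, at -0.12 and -0.11. PCNA differed by 0.13 in ICC and TOP2A by 0.17 in CA. The 16 targets of ATF4, the transcription factor of the amino acid and endoplasmic reticulum stress response, had a median of 0.12 in ICC minus Control and 0.01 in CA minus Control. XPOT differed by 0.18 and 0.23, ATF5 by 0.12 and -0.11, CEBPB by 0.21 in ICC and VLDLR by -0.15 in CA.

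For ICC minus CA the genes with the lowest p were FOLR2 (0.12), FOLR1 (-0.39) and SLC46A1 (-0.08) for transport, and MTFMT (-0.16), MTRR (-0.12) and FTCD (-0.07) for folate enzymes. For deoxynucleotides they were CDA (0.18), RRM2B (-0.22) and TK2 (0.24), and for serine and glycine AMT (0.07), GLDC (-0.05) and SFXN1 (0.05). For S phase they were CCNE2 (-0.13), MCM7 (0.13) and MCM5 (0.12), and for ATF4 targets ATF5 (0.23), SLC7A5 (0.17) and CEBPB (0.16). All are log2 differences, and none passed.

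The replicate number took a larger share of the variation than treatment in 16 of the 21 probe sets, and treatment the larger share in 5. Of the variation over the 9 arrays, the number took 80.4% and the treatment 1.16% for MTHFD2 201761_at. For SHMT2 the number took 61.0% to 65.2% over the 3 probe sets, and the treatment 0.218% to 4.32%. For MTHFD1 202309_at the number took 86.1%, for GGH 80.9% and for TYMS 49.9%, 73.5% and 83.0%. FPGS was split about evenly, with 32.6% for the number and 29.6% for treatment. The 5 that went the other way were SHMT1 217304_at (number 5.34%, treatment 65.0%), MTHFD1 239846_at (41.3% and 53.4%) and 3 probe sets of SLC19A1. These were 1555953_at (7.76% and 41.8%), 209775_x_at (4.45% and 27.8%) and 1555952_at (0.267% and 12.4%), and the other 4 of SLC19A1 had 12.6% to 55.9% for the number. Of the 16, SLC19A1 209776_s_at was close to a tie, at 12.6% for the number and 12.5% for treatment. Over all probe sets the medians were 30.0% for the number and 22.2% for treatment. The count of 16 of 21 is given without the same count over all probe sets.

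MTHFD2 was the member that passed the test for replicate 2 against replicate 3, with treatment in the model. The 3 replicate 2 arrays of 201761_at ran from 5380 to 7084, and the 3 replicate 3 arrays from 3654 to 4427, without overlap. Replicate 2 was higher by 0.62 ± 0.11 on the log2 scale, or 1.54-fold (SE; interval 0.37 to 0.87; limma adjusted p = 0.0385). It was the only 1 of 21 members called, beside 0.965% of all probe sets. Within each group, with 1 array a number and so no test, the difference was 0.40 in ICC, 0.96 in CA and 0.50 in Control. The call was lost when any of 7 of the 9 arrays was left out, all but Control replicate 1 and ICC replicate 3, with adjusted p from 0.0343 to 0.208 over the 9 refits.

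The second MTHFD2 probe set, 234976_x_at, read 104, 115 and 88.6 in ICC, 86.4, 153 and 63.0 in CA, and 119, 98.4 and 76.9 in Control. Its replicate 2 arrays also lay above its replicate 3 arrays, by 0.67 ± 0.18 (SE, adjusted p = 0.106), which did not pass. The 3 SHMT2 probe sets lay apart the same way without passing: 0.33 ± 0.10 for 214096_s_at (adjusted p = 0.166), 0.40 ± 0.11 for 214437_s_at (adjusted p = 0.115) and 0.37 ± 0.11 for 214095_at (adjusted p = 0.153). On 214437_s_at the arrays read 1686, 1775 and 1563 in ICC, 1521, 2083 and 1317 in CA, and 1770, 1647 and 1293 in Control, with the widest gap again in CA.

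The 3 TYMS probe sets lay apart in the opposite direction, replicate 2 below replicate 3. The dimmest, 217684_at, read 69.8, 72.0 and 89.6 in ICC, 76.1, 78.7 and 94.6 in CA, and 76.1, 68.9 and 107 in Control. Its difference was -0.41 ± 0.08 (SE; adjusted p = 0.0515), just outside the threshold. The 2 brighter probe sets differed by -0.16 ± 0.08 (202589_at, adjusted p = 0.459) and -0.15 ± 0.08 (1554696_s_at, adjusted p = 0.494). The dimmest did not follow them over the 9 arrays, with Pearson's r of 0.154 to 202589_at and -0.0169 to 1554696_s_at. Those 2 correlated with each other at 0.767. SLC19A1 211576_s_at differed by -0.21 ± 0.09 (adjusted p = 0.373) and FPGS by 0.14 ± 0.08 (adjusted p = 0.547). MTHFD1 202309_at and GGH differed by 0.01 and 0.01. In all, 8 of the 21 lay apart, beside 16% of all probe sets, and 7 had an unadjusted p under 0.05, beside 13.4%.

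**Figure D3:**
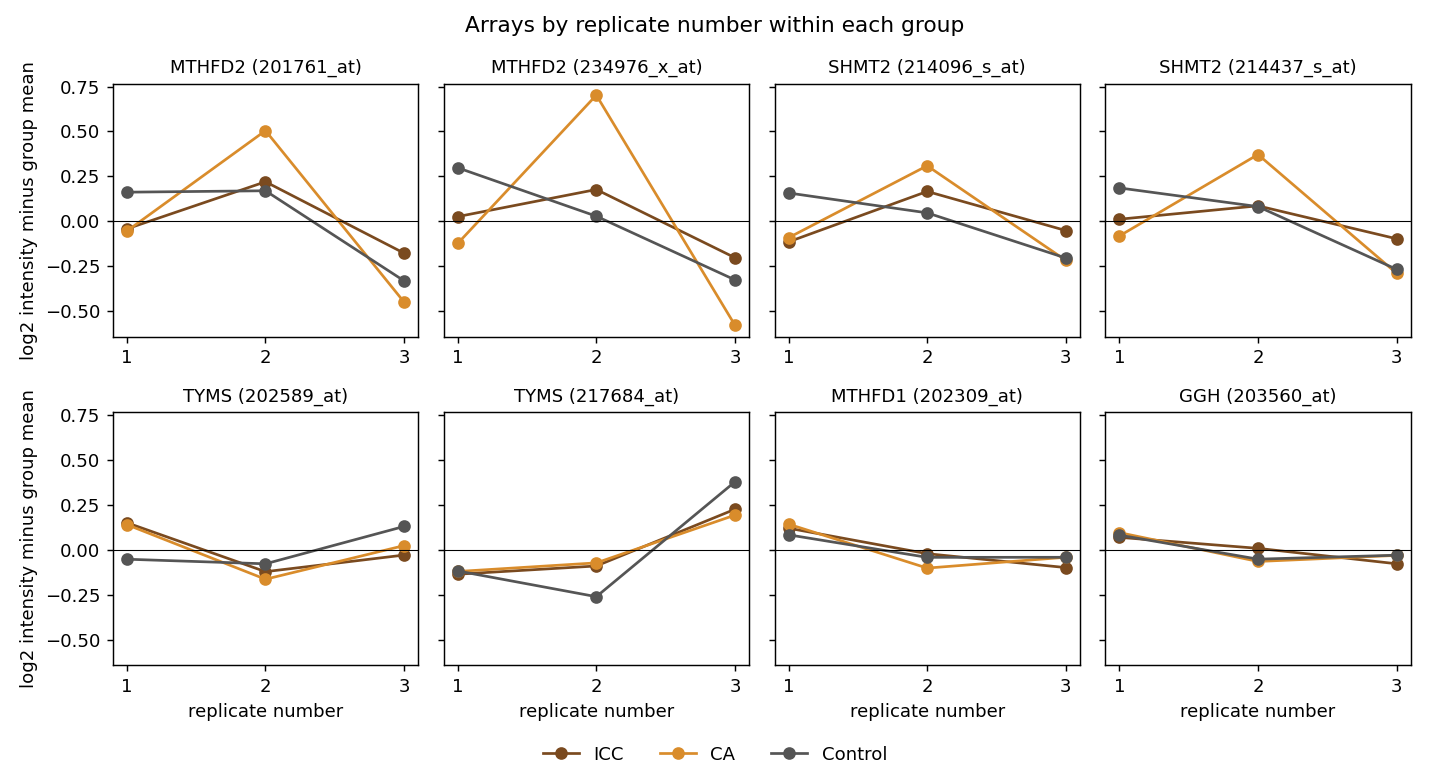
Log2 intensity minus the mean of the treatment group (vertical axis) against replicate number (horizontal axis) for 8 member probe sets, with 1 line per treatment and 1 array per point. The MTHFD2 and SHMT2 probe sets are lower in replicate 3 than in replicate 2 in all 3 groups, the TYMS probe sets are higher there, and MTHFD1 and GGH are highest in replicate 1.

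Replicate 1 against replicates 2 and 3 gave no member past the test, beside 4.05% of all probe sets. At an unadjusted p under 0.05 it gave 4 of 21, beside 17.7%. MTHFD1 202309_at was 0.17 ± 0.06 higher in replicate 1 (SE, adjusted p = 0.152), and its 3 replicate 1 arrays lay above the other 6. TYMS 1554696_s_at was 0.19 ± 0.07 higher (adjusted p = 0.182) and GGH 0.12 ± 0.06 higher (adjusted p = 0.307), both also apart, and these 3 compare with 7.82% of all probe sets. TYMS 217684_at differed by -0.19 ± 0.07 and SLC19A1 229639_s_at by 0.17 ± 0.08. MTHFD2 201761_at and SHMT2 214096_s_at differed by 0.03 and -0.02.

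The pathway lists were then read by replicate number. MTHFD2 and SHMT2 are themselves known targets of ATF4, and neither is in the list of its targets used here. That list was chosen with earlier results of these data known. Whether ATF4 had a part in the differences of MTHFD2, SHMT2 or the serine synthesis genes was not tested. All 16 ATF4 targets were higher in replicate 2 than in replicate 3, with a median of 0.83, against -0.00 over all genes, of which 48.8% were higher. Of them 4 passed the test, beside 0.936% of all genes called higher, and 13 had an unadjusted p under 0.05, beside 7.39%. DDIT3, which encodes the stress factor CHOP, rose by 1.44 ± 0.25 (SE, adjusted p = 0.0277), SESN2, a stress-induced inhibitor of mTORC1 signalling, by 1.69 ± 0.30 (adjusted p = 0.0303) and CHAC1, a glutathione-degrading enzyme, by 1.87 ± 0.33 (adjusted p = 0.0308). The fourth, DDIT4, another mTORC1 inhibitor, was named after its values were seen: it read 2678, 3978 and 2125 in ICC, 2096, 5764 and 845 in CA, and 3614, 3251 and 584 in Control. Replicate 3 was the lowest DDIT4 array in each group, and replicate 2 was the highest in ICC and CA, though not in Control. Within groups the median over the 16 genes was 0.38 in ICC, 1.33 in CA and 0.97 in Control, with 1 array a number.

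Serine synthesis genes, which are also known ATF4 targets, had the lowest p of their list in the same comparison. PSAT1 differed by 0.83 ± 0.18 (SE, adjusted p = 0.0519), PSPH by 0.64 ± 0.17 (adjusted p = 0.0919) and PHGDH by 0.34 ± 0.11 (adjusted p = 0.164). None of the 8 passed, 3 had an unadjusted p under 0.05 (14.4% of all genes in either direction did), and their median was 0.06. The other folate enzymes had a median of 0.06 with 0 of 10 past the test and none at an unadjusted p under 0.05, and MTHFD2L (0.18), MTR (0.12) and MTFMT (-0.10) had the lowest p. None of the 7 transport genes passed and 3 had an unadjusted p under 0.05, against the same 14.4%; their median was -0.13, led by ABCG2 (-0.35, adjusted p = 0.0721), ABCC1 (-0.19) and SLC25A32, the mitochondrial folate carrier (0.17). None of the 12 deoxynucleotide genes passed and 2 had an unadjusted p under 0.05, against the same 14.4%; their median was 0.03, led by TYMP (0.25), SAMHD1 (0.20) and RRM2B (0.20).

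The S phase genes ran the other way, with 14 of 15 lower in replicate 2 and a median of -0.14, where 51.2% of all genes were lower. The helicase subunit MCM4 passed, at -0.34 ± 0.07 (SE, adjusted p = 0.0410), the only 1 of 15, beside 0.799% of all genes called lower. At an unadjusted p under 0.05, 5 were lower, beside 6.99%. E2F1, a transcription factor of S phase genes, differed by -0.21 and MCM5 by -0.23. Colon epithelial markers went both ways. Their summed intensity was 54795 to 55996 in replicate 1, 56606 to 57194 in replicate 2 and 57799 to 59679 in replicate 3, while 7 of 12 were lower in replicate 2 than in replicate 3, with a median of -0.02. LGALS4 was 0.44 higher (adjusted p = 0.0287), the only 1 of the 12 to pass, beside 0.936% of all genes called higher. VIL1 and KRT19 differed by -0.20 and -0.19. In all 5 of 12 had an unadjusted p under 0.05, beside 14.4% of all genes. Their part in the differences of MTHFD2 and the lists was not tested.

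Replicate 1 stood out for other lists. Of the 12 deoxynucleotide genes 11 were higher there than in replicates 2 and 3, with a median of 0.17 against 0.03 over all genes, of which 60.2% were higher. Of them 3 passed, beside 4.03% of all genes called higher: SAMHD1, a hydrolase of deoxynucleotides, by 0.73 ± 0.07 (SE, adjusted p = 3.88e-04), the thymidine phosphorylase TYMP by 0.59 ± 0.07 (adjusted p = 9.36e-04) and the mitochondrial thymidine kinase TK2 by 0.34 ± 0.08 (adjusted p = 0.0443). SAMHD1 read 2406, 1630 and 1332 in ICC, 2810, 1750 and 1416 in CA, and 2247, 1440 and 1422 in Control, so every replicate 1 array was above the rest. In this list 8 genes had an unadjusted p under 0.05 and were higher, beside 14.2% of all genes.

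All 15 S phase genes were higher in replicate 1 in the joint fit, with a median of 0.11, where 60.2% of all genes were higher. The DNA topoisomerase TOP2A passed at 0.28 ± 0.07 (SE, adjusted p = 0.0494), 1 of 15 beside 4.03% of all genes. MKI67 differed by 0.22 (adjusted p = 0.0903) and CCNE1 by 0.16. Within groups 14 of the 15 were higher in ICC, 14 in CA and 7 in Control, so the direction did not hold in the untreated cells. ATF4 targets had a median of 0.12, led by XPOT (-0.17), SLC7A11 (-0.43) and CEBPB (0.21), and none passed. Within groups that median was -0.13 in ICC, -0.19 in CA and 0.67 in Control. The transport list was led by ABCG2 (-0.26), ABCC3 (-0.14) and FOLR1 (0.50), the folate enzymes by MTHFD2L (-0.25), MTFMT (0.11) and MTR (0.10), and the serine and glycine list by DLD (0.12), PHGDH (0.09) and SFXN1 (0.05), all without passing. Marker genes differed in both directions. Of 12 colon epithelial markers 8 were lower in replicate 1, with a median of -0.09, and 5 had an unadjusted p under 0.05, beside 19.7% of all genes. LGALS4 was the 1 that passed, at -0.45 (adjusted p = 0.00435), beside 1.05% of all genes called lower, and CDH1 differed by -0.21 and KRT20 by 0.17. Of 5 leukocyte markers measured 3 were higher and 2 lower, with a median of 0.02. CD14 and LAPTM5 were higher by 0.49 and 0.69 and passed, beside 4.03% of all genes, and TYROBP differed by -0.21. Their summed intensity, which CD14 and LAPTM5 dominate, was 371 to 509 in replicate 1, 298 to 366 in replicate 2 and 290 to 329 in replicate 3. PTPRC, the defining leukocyte marker, was brighter than only 7.22% of genes, and the part of these markers in the result was not tested.

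**Figure D4:**
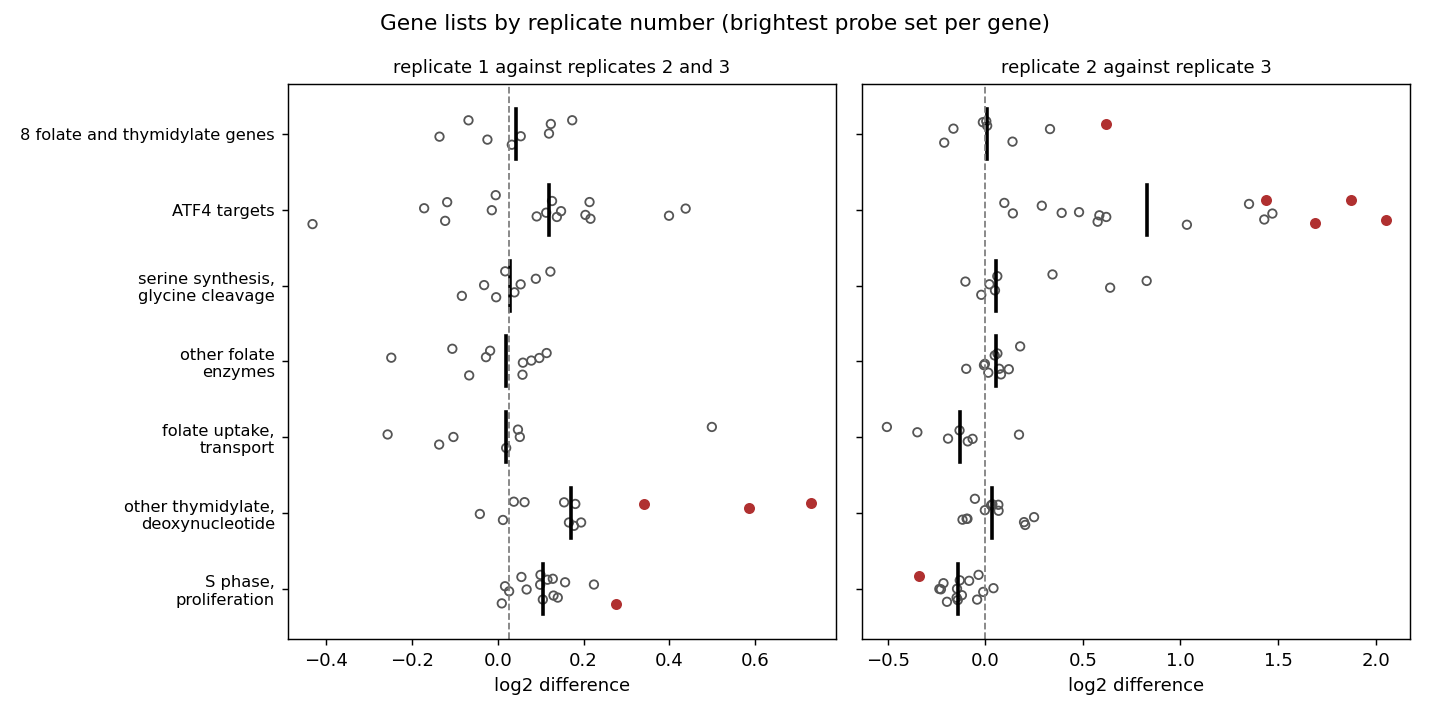
Log2 difference (horizontal axis) of each gene by its brightest probe set, for the 8 members and the 6 lists (rows), for replicate 1 against replicates 2 and 3 and for replicate 2 against replicate 3. Filled points passed at an adjusted p under 0.05, black bars are list medians and the dashed line is the median of all genes. The ATF4 targets lie to the right in the second panel, with a median of 0.83.

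Among themselves, the MTHFD2 and SHMT2 probe sets followed each other over the 9 arrays, with Pearson's r from 0.931 to 0.980 between the genes. MTHFD1 202309_at and GGH correlated at 0.938, and the TYMS and SHMT2 probe sets at -0.737 to -0.514 between the genes. These arrays share treatments and replicate numbers, so the values are descriptions. The 2 genes most like each member were chosen by the highest r among brighter genes that varied. They were ABITRAM (0.992) and JUNB (0.989) for MTHFD2, and TRIB3 (0.994) and SARS1 (0.992) for SHMT2. For TYMS they were METTL21A (0.978) and SLC40A1 (0.960), and for MTHFD1 CDC25C (0.977) and FBXO5 (0.969). For GGH they were HAUS7 (0.969) and EED (0.968), for FPGS DCAF11 (0.965) and GTPBP1 (0.944). For SLC19A1 they were PRDX4 (0.919) and GALNT14 (0.900), and for the dim SHMT1 probe set CTDSP1 (0.926) and RABGEF1P1 (0.906).

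The promoters of MTHFD2 and TYMS are shown because these genes lay apart in opposite directions between replicates 2 and 3. In GRCh38.p14, MTHFD2 lies on chromosome 2 at 74198615 to 74217565 and TYMS on chromosome 18 at 657653 to 673578. The sequences are RefSeq's 250 bases just before the annotated start, both on the plus strand, at chr2:74198365-74198614 and chr18:657403-657652. Capitals mark CCAAT in MTHFD2 and the reverse complement of TTTNNCGC, the E2F site, in TYMS.
MTHFD2 promoter: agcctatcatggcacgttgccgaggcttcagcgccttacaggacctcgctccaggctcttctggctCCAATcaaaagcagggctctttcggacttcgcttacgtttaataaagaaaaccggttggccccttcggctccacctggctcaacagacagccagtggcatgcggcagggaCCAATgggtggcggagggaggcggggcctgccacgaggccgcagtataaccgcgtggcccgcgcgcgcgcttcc
TYMS promoter: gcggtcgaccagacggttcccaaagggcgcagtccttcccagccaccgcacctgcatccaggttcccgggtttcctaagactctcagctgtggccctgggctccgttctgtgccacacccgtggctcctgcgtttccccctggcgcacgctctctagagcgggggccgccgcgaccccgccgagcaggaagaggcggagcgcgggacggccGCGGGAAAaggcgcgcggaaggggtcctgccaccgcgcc
CCAAT began 184 and 74 bases before the MTHFD2 start, and the TTTNNCGC match lay 39 bases before the TYMS start. On both strands of 35116 promoter windows of 250 bases, CCAAT was found in 32% and TTTNNCGC in 5.92%. The C/EBP-ATF element TGATGNAAT, found in 0.888% of windows, and the E-box CACGTG, found in 6.34%, had no match in either window. Neither marked motif was particular to the gene shown: CCAAT also matched in windows of FPGS, MTHFD1 and SHMT1, and TTTNNCGC in a window of SLC19A1. A match in such a window is a description of its letters and not a measured binding site.

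The other members lie in GRCh38.p14 on chromosome 14 at 64388353 to 64460025 (MTHFD1), chromosome 17 at 18327873 to 18363550 (SHMT1), chromosome 12 at 57229711 to 57234935 (SHMT2) and chromosome 9 at 127802858 to 127814506 (FPGS). GGH lies on chromosome 8 at 63015079 to 63038806 and SLC19A1 on chromosome 21 at 45502517 to 45563025.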

How the data were processed

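Expression was measured on 9 Affymetrix arrays of HT29 cells, 3 per group. The deposited table holds 1 linear intensity per probe set, made with RMA per the submitters' processing notes; the log2 was taken here. The RMA software's version and settings were not given in the sources used. RMA pulls arrays to a common distribution and can shrink differences of dim probe sets. Of 54675 rows, 62 control probe sets were left out. Names came from the platform annotation: 41091 probe sets had 1 symbol, 1801 several and 11721 none.

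Treatments were compared with limma 3.58.1 (R 4.3.3; Python 3.11.15 and matplotlib 3.10.9 for sequences and figures) on all 54613 probe sets, with Benjamini-Hochberg adjustment and a threshold of 0.05. Replicate numbers were compared with treatment in the model. Scripts were tested on simulated data. Deviations from the group means correlated at 0.271 to 0.478 in 9 same-numbered pairs of arrays and at -0.407 to 0.0770 in 18 others, so the numbers were taken as pairing the arrays. This comes from the data, since no label says what a number marks. Deviations from a group mean cancel out within the group, so the low values of the 18 other pairs are not separate support for the pairing. Named are all members, the 3 genes per list and comparison with the lowest p, and the 2 genes most correlated with each member. The members, lists and tests were chosen with earlier results of these data known. Alternatives were a replicate block, other scalings, filters, weights, an offset of 16 and left-out arrays.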

Additional observations from a re-analysis of the deposited data

How the results depend on the processing

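For the 3 treatment comparisons, 0 of 21 member probe sets passed under every alternative run, the replicate block included, and that block changed no member's call; with it 2 probe sets passed for ICC against Control over the whole table, against 0 without it. A block cannot be added to a comparison of the numbers themselves. For replicate 1 against replicates 2 and 3 the member count was likewise 0 under every alternative. For replicate 2 against replicate 3, 1 member passed in the fit reported. The count was 2 after a second quantile normalization, without dim probe sets, without _x_at and _s_at probe sets, and with array weights, the second being TYMS 217684_at at an adjusted p of 0.0492, 0.0343, 0.0482 and 0.0361. It was 0 with an offset of 16 and without the Control, CA or ICC arrays, where MTHFD2 201761_at differed by 0.62, 0.68, 0.45 and 0.73 at adjusted p of 0.0635, 0.228, 0.239 and 0.0889, and 0 to 1 when single arrays were left out. Fewer arrays enter the fits with arrays left out. The difference itself was also smaller without the CA arrays, at 0.45 against 0.62 in the fit reported, and larger without the Control or ICC arrays. The cause of a lost call was not tested for these fits or for the offset. Over all probe sets, 527 passed in that comparison, against 272 without treatment in the model, 930 without dim probe sets, 343 with 1 probe set per gene, and 1, 5 and 73 without the Control, CA and ICC arrays (7 to 533 with single arrays left out). For replicate 1 the count of 2211 became 1424 without _x_at and _s_at probe sets, 1003 with 1 probe set per gene, 323, 954 and 315 without the Control, CA and ICC arrays, and 614 to 1996 with single arrays left out. No called member changed direction. With 3 arrays a group and several members dim, small differences lie below what these arrays can show.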
